A study of Homo sapiens with 6 samples.

Results

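The hepatocyte transcription factors described here are 8 genes, HNF4A, HNF4G, FOXA1, FOXA2, FOXA3, CEBPA, ONECUT1 and NR5A2, taken by gene symbol from the probe annotation. In all, 12 of the 47323 probes on the arrays carried one of these symbols and covered 7 of the 8 genes, and HNF4A was not analysed here. Tests were run on probes detected above background, with a detection p below 0.05, in 3 or more of 6 arrays. Of the 12 probes 8 met this, among 20120 probes tested in the series. At least 1 probe passed for each of the 7 genes, and each of the 8 passing probes was detected on all 6 arrays, so none passed through 1 group alone. The cells were of the human liver tumour line HepG2, given in the labels as hepatocellular carcinoma. One group of 3 bead arrays measured RNA from cells kept for 24 h in DMSO, the solvent, and the other group of 3 RNA from cells kept as long with sorafenib. Sorafenib inhibits RAF kinases and several receptor tyrosine kinases. The labels give its dose as 3 mM, a unit that the files cannot check and that lies far above the micromolar doses usual in culture. Both groups were this single line, with no genetic change named in the labels. The labels do not say whether replicates were grown separately, so the p-values cover array-to-array spread, possibly technical. In RNA from bulk cells, fewer cells expressing a gene and less of its RNA per cell cannot be told apart.

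These proteins form the core network that switches on liver genes in development and holds them on in the adult hepatocyte. FOXA proteins are pioneer factors that open chromatin at liver enhancers. HNF4A and HNF4G are nuclear receptors that bind promoters of apolipoprotein and clotting factor genes, CEBPA is a leucine zipper factor of metabolic genes and of growth arrest, ONECUT1 (also called HNF6) acts in liver and bile duct formation, and NR5A2 (also called LRH-1) is a nuclear receptor of bile acid and cholesterol genes. Members bind one another's promoters and enhancers, and loss of some of them, not of all, is a known feature of poorly differentiated liver cancer.

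The markers of the labelled cell type were present. All 16 hepatocyte and HepG2 markers were tested, among them ALB, AFP, APOA1 and TTR. Their summed normalized intensity was 285080 to 316220 on the DMSO arrays and 267630 to 302880 on the sorafenib arrays, ranges that overlap. The sum adds intensities on a linear scale, so the brightest genes weigh most and it does not describe the 16 genes as a set. Calls of single markers are given below. Mean raw intensity per array was 739 to 1050 and 19440 to 20138 probes were detected on an array. Arrays of 1 group had Pearson correlations of log2 values of 0.989 to 0.994, and arrays of different groups of 0.977 to 0.986.

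With sorafenib, 5 of the 7 factors measured were lower and 1 was higher. FOXA1 and CEBPA fell by 0.70 and 0.74 on the log2 scale, which leaves 0.615 and 0.599 of the DMSO level. FOXA2, FOXA3 and ONECUT1 fell by 0.42, 0.34 and 0.44. NR5A2 rose on both of its detected probes, by 0.37 and 0.44, and HNF4G was not called. Counted as probes, 7 of the 8 passed an adjusted p of 0.05 in limma, which is 87.5%, against 16.7% of all probes tested. The 5 lower probes stand beside a background of 9.45% of probes called lower, and the 2 higher probes beside 7.27% called higher. The 3 sorafenib arrays lay wholly to one side of the 3 DMSO arrays for the same 7 probes, 5 below and 2 above, as they did for 38.9% of all probes, 19.8% below and 19.2% above. The median log2 difference was -0.38 over the 8 member probes and 0.01 over all probes tested. These counts are descriptions, since the members were chosen with earlier results of these data known.

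The calls differ in how firmly they stand on 3 arrays a group. Leaving out 1 array at a time left between 1 and 5 of the 8 probes called. Scaling the arrays to a common median left 2, FOXA1 and CEBPA. The log2 differences stayed on the same side of 0 under every alternative run. In those that changed only the filter, the eBayes options, the block or the probes per gene, the differences could not move. Fits without 1 array reuse all the others.

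**Figure D1:**
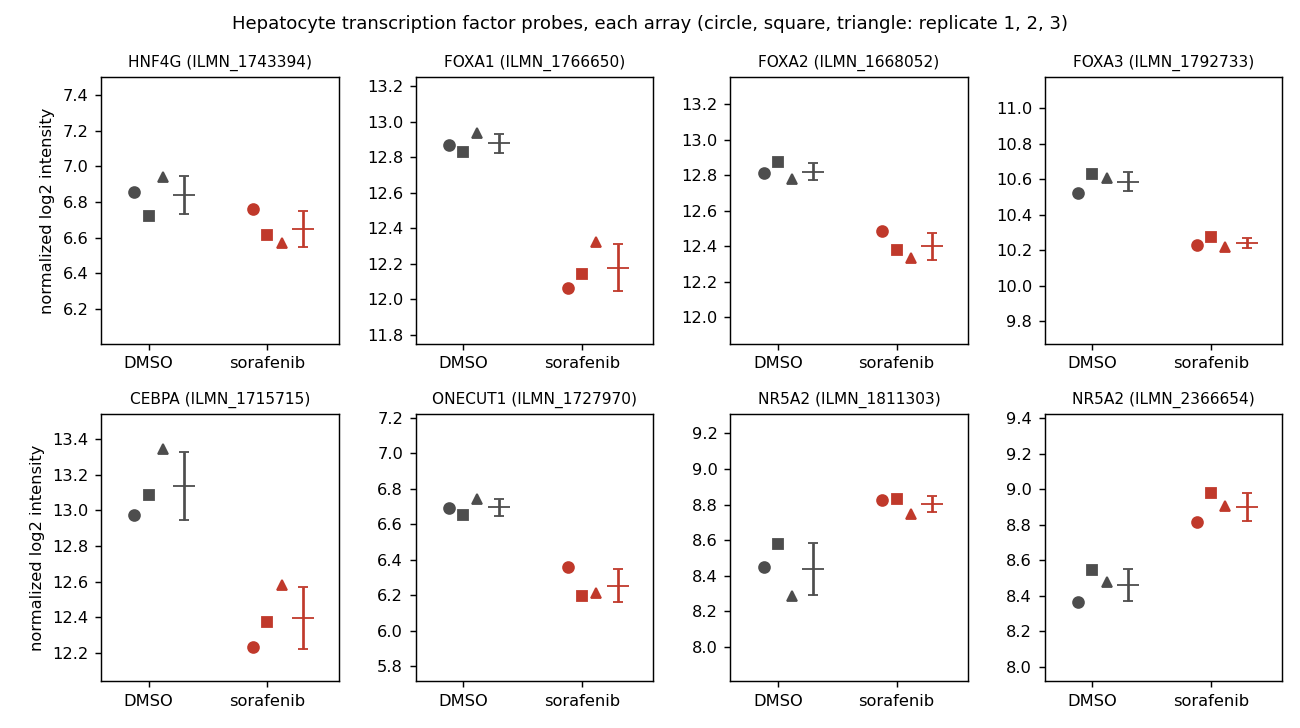
Normalized log2 intensity of the 8 tested probes on each array, with DMSO in grey and sorafenib in red, the 3 replicates as circle, square and triangle, and the group mean ± SD (n = 3) beside them. Every panel spans the same number of log2 units, and the groups overlap for HNF4G alone.

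FOXA1, a pioneer factor of liver and also of breast and prostate, was the only member called under every alternative. Its normalized log2 levels on DMSO replicates 1, 2 and 3 were 12.87, 12.83 and 12.94. On sorafenib replicates 1, 2 and 3 they were 12.07, 12.14 and 12.32. Every sorafenib array lay below every DMSO array, with a gap of 0.51 between the nearest arrays. The difference was -0.70 ± 0.09 (limma, adjusted p = 0.0061; SE, n = 3 per group), and it passed under all 17 alternatives, at -0.77 to -0.65. The raw intensities did not overlap either. They were 8251, 7828 and 6267 with DMSO and 4128, 5619 and 4761 with sorafenib.

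FOXA2, which is active in early endoderm and in liver glucose metabolism, also fell. Its detected probe gave 12.81, 12.87 and 12.78 on the DMSO arrays. It gave 12.48, 12.38 and 12.33 on the sorafenib arrays. The groups did not overlap after normalization, and the difference was -0.42 ± 0.08 (SE, n = 3; limma, adjusted p = 0.0178). Before normalization they did. DMSO replicate 3, the array with the lowest mean intensity, read 5612, below the 6617 of sorafenib replicate 2, the array with the highest. The call was lost without DMSO replicate 1, DMSO replicate 2, sorafenib replicate 2 or sorafenib replicate 3 (limma, adjusted p = 0.0534, 0.0692, 0.0657 and 0.0512) and with median scaling (0.160).

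The 2 other FOXA2 probes were not above background on any array, with raw intensities of 59.6 to 108. One of them, ILMN_1678728, is annotated to the same transcript, NM_153675, as the bright probe ILMN_1668052, so these probes of 1 gene disagree and the values of FOXA2 rest on 1 probe. LINC00261, a long noncoding RNA gene next to FOXA2, differed by -0.47 ± 0.25 (adjusted p = 0.244), with groups that overlap.

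FOXA3, the FOXA paralog that in mouse is most abundant in adult liver, had log2 levels of 10.53, 10.63 and 10.61 with DMSO. With sorafenib the levels were 10.23, 10.28 and 10.22. The arrays within each group lay close together, with an SD of 0.06 and 0.03, and the difference was -0.34 ± 0.08 (SE, n = 3; limma, adjusted p = 0.0267). It missed the threshold in each of the 6 fits that left out an array, with adjusted p from 0.0539 to 0.0911, with median scaling (0.283) and with no filter on dim probes (0.0507). The raw intensities of the groups overlapped, at 1303 to 1762 with DMSO and 1161 to 1632 with sorafenib.

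FOXA1 and FOXA3 were compared within each array. The log2 level of the FOXA1 probe minus that of the FOXA3 probe was 2.29 ± 0.08 (SD, n = 3) with DMSO and 1.93 ± 0.15 with sorafenib. The change of -0.36 had p = 0.1 in an exact two-sided permutation test, the smallest p that 3 arrays against 3 allow. Against FOXA2, the FOXA1 probe changed by -0.28 (exact p = 0.2) and the groups overlapped. FOXA2 against FOXA3 changed by -0.08 (exact p = 0.3). With the NR5A2 probes below, 4 pairs were compared, and the lowest adjusted p was 0.4. A difference between FOXA1 and its paralogs in the size of the fall was therefore not shown, nor was its absence.

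**Figure D2:**
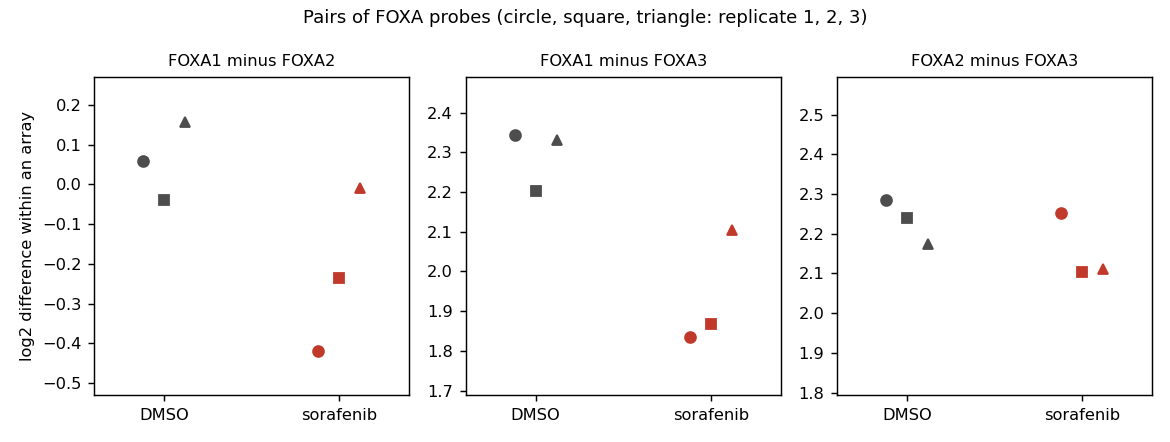
Log2 level of 1 FOXA probe minus another within the same array, for the 3 pairs, with DMSO in grey, sorafenib in red and replicates 1, 2 and 3 as circle, square and triangle. Only FOXA1 minus FOXA3 separates the groups, at 2.20 to 2.34 against 1.83 to 2.10, while the other 2 pairs overlap; the height of a difference between probes has no meaning of its own.

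CEBPA had the largest fall among the members, at -0.74 ± 0.14 (SE, n = 3; limma, adjusted p = 0.0153). Its log2 levels were 12.97, 13.09 and 13.35 on DMSO replicates 1, 2 and 3. They were 12.23, 12.37 and 12.58 on sorafenib replicates 1, 2 and 3. In both groups replicate 1 was lowest and replicate 3 highest, so arrays with the same number differed by much the same amount, -0.74, -0.72 and -0.77. Blocked on replicate number, the SE was 0.07 (adjusted p = 0.00802). The groups also stood apart in raw intensity, at 8356 to 9218 against 4631 to 6588. Without DMSO replicate 2 the adjusted p rose to 0.0502, and it was 0.0553 when sorafenib replicate 2 was left out.

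ONECUT1 was a dim probe. Raw intensities were 220, 207 and 177 with DMSO and 187, 189 and 168 with sorafenib, beside array medians of 120 to 145. These raw values overlapped between the groups. After normalization the log2 levels were 6.69, 6.65 and 6.74 with DMSO. They were 6.36, 6.19 and 6.21 with sorafenib, without overlap. The difference was -0.44 ± 0.08 (SE, n = 3; limma, adjusted p = 0.0172). Its size depended on the treatment of background. It was -0.19 without background correction (adjusted p = 0.0595) and -0.20 on the authors' processed values (adjusted p = 0.0532). The call was also lost with median scaling (0.0830), with eBayes with trend and robust (0.0742), and without DMSO replicate 1, 2 or 3 or sorafenib replicate 2 (0.0547, 0.0543, 0.0544 and 0.0685). The second ONECUT1 probe, annotated to the same transcript, was not above background on any array, at 113 to 139. These probes of 1 gene disagree, and the values of ONECUT1 rest on 1 probe.

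HNF4G, a close relative of HNF4A that is also expressed in gut, had log2 levels of 6.86, 6.72 and 6.94 with DMSO. With sorafenib they were 6.76, 6.62 and 6.57. Sorafenib replicate 1 lay above DMSO replicate 2, so the groups overlapped. The difference was -0.19 ± 0.10 (SE, n = 3; limma, adjusted p = 0.223), with a 95% interval of -0.42 to 0.04, and it passed under none of the 17 alternatives. A fall as large as that of FOXA3 lies inside that interval. This probe too was dim, at 185 to 233 in raw intensity.

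NR5A2 was the only member that rose, and its 2 detected probes, both annotated to transcript NM_003822, gave like values. The probe ILMN_2366654 read 8.37, 8.54 and 8.48 with DMSO. It read 8.82, 8.98 and 8.91 with sorafenib, a difference of 0.44 ± 0.09 (SE, n = 3; limma, adjusted p = 0.0210). The probe ILMN_1811303 read 8.45, 8.58 and 8.28 with DMSO and 8.82, 8.83 and 8.75 with sorafenib, a difference of 0.37 ± 0.10 (limma, adjusted p = 0.0477). All sorafenib arrays lay above all DMSO arrays on both probes after normalization. In raw intensity ILMN_1811303 overlapped, at 338 to 504 with DMSO and 479 to 652 with sorafenib, and ILMN_2366654 did not.

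The difference between the 2 NR5A2 probes changed by -0.07 with sorafenib (exact permutation test, p = 0.6), so unequal change was not shown. They report on 1 gene and are not independent. The other NR5A2 probe, annotated to transcript NM_205860, was not above background on any array. The call of ILMN_1811303 was lost in all 6 fits without 1 array (adjusted p = 0.0601 to 0.135) and with no filter (0.0880), and that of ILMN_2366654 in 5 of the 6 (0.0507 to 0.0782), holding without sorafenib replicate 1. With median scaling their adjusted p was 0.236 and 0.125.

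**Figure D3:**
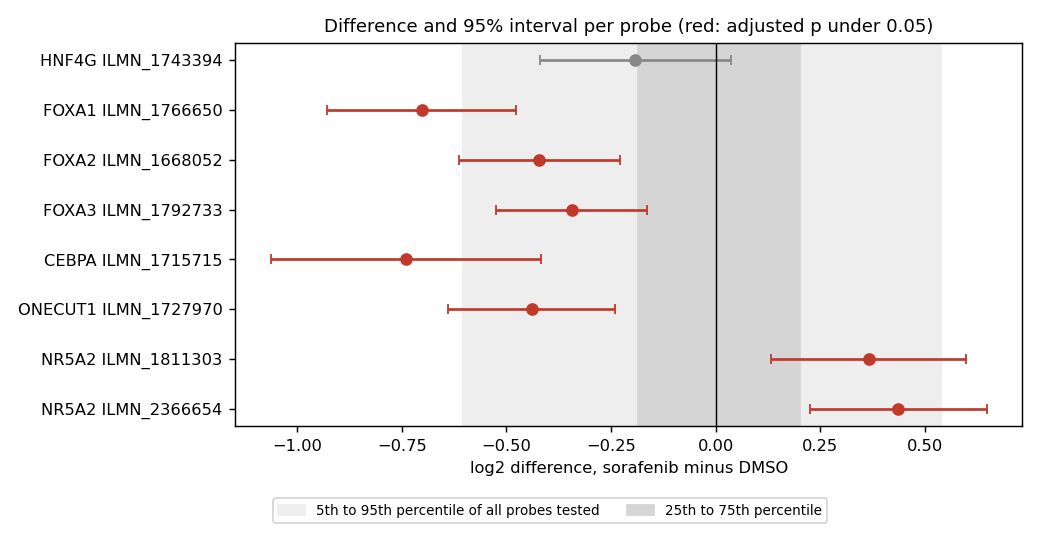
Log2 difference, sorafenib minus DMSO, of each tested probe with its 95% interval from limma (n = 3 arrays per group), red where the adjusted p was under 0.05. Grey bands run from the 25th to the 75th and from the 5th to the 95th percentile of all 20120 probes, -0.19 to 0.20 and -0.60 to 0.54; FOXA1 and CEBPA lie below both bands.

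Over all probes tested, 6.00% had a difference at least as large as that of FOXA1 in either direction, and 5.10% one at least as large as that of CEBPA. The other 6 probes lay between the 5th and 95th percentiles, -0.60 and 0.54.

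The promoters are shown for the members with the largest fall and for the one that rose, so that the sequence at their starts can be read beside the values. They come from RefSeq's gene models on build GRCh38.p14, run 5′ to 3′ on the gene's strand over 300 bases around a start, most of them before it, and have capitals where letters of a searched motif were found on either strand. FOXA1 is read from the minus strand at chr14:37595200-37595499, CEBPA from the minus strand at chr19:33302485-33302784, and NR5A2 from the plus strand at 2 starts, chr1:200027460-200027759 and chr1:200042341-200042640.
FOXA1: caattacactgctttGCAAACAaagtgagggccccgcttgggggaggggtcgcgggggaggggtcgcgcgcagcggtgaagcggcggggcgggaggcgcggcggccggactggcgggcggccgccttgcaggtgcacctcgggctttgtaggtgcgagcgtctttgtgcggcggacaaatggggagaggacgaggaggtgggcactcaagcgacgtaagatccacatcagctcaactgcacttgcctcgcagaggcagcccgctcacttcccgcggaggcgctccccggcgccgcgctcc
CEBPA: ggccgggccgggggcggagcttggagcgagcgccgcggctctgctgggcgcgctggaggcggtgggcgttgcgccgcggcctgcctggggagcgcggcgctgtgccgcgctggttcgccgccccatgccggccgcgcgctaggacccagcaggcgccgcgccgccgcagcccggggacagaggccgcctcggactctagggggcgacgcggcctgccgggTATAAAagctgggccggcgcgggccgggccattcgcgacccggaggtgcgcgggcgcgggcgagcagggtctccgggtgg
NR5A2, upstream start: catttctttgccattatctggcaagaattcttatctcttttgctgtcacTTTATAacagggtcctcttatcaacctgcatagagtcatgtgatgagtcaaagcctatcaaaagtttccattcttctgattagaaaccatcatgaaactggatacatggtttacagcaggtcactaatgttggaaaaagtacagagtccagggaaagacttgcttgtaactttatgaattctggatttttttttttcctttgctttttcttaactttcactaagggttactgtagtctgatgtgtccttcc
NR5A2, downstream start: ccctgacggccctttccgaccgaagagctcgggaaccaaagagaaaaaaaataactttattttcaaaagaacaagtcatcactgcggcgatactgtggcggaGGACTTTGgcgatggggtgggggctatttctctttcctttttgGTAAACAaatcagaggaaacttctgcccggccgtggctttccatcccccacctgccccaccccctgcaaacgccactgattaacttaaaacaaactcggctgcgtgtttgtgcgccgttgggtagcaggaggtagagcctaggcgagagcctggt

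The capitals in the FOXA1 promoter mark a FOXA motif, TGTTTNC, on the reverse strand at position -235, where -1 is the base before the start and a position is the leftmost base of the match. Of 35114 promoters of the same length 18.0% hold that motif. The downstream NR5A2 promoter holds the same motif on its reverse strand at -105. It also holds an HNF4 motif, CAAAGTCC, on the reverse strand at -148, which 1.20% of promoters hold, and the matches do not overlap. CEBPA has a TATA box, TATAAA, at -30, as 11.5% of promoters do at some position, and so has FOXA3. In the upstream NR5A2 promoter TATAAA lies on the reverse strand at -201. ONECUT1 held none of the motifs searched, and no window read here held the C/EBP motif TTGCNNAA, the NR5A motif CAAGGNCA or the ONECUT motif ATTGAT, which 10.5%, 5.28% and 6.26% of promoters hold. Each motif was searched on both strands. Promoters of FOXA1, CEBPA, FOXA3 and ONECUT1 were 69.3%, 80.7%, 76.3% and 75% G and C, and those of NR5A2 36.7% and 52.7%, beside a median of 58.7%. A match of letters is a description and not a bound site. These 6 windows cover 5 of the members.

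The factors around this core moved in both directions. Among 26 other liver-enriched regulators tested, 4 rose and 5 fell in limma, beside 8.44% of 11543 genes called higher and 11.6% called lower, and their median log2 difference was -0.16 against 0.00 over all genes. NR0B2 (also called SHP), which binds NR5A2 and HNF4A and represses them, rose by 2.52 ± 0.13 (SE, n = 3; limma, adjusted p = 0.000326). FOXO1, an insulin-controlled factor of gluconeogenesis, rose by 0.93 ± 0.11. Its paralog FOXO3 fell by 0.60 ± 0.15 (SE, n = 3; limma, adjusted p = 0.0380), a call lost in 7 of the 17 alternatives. CREB3L3, a membrane-bound factor of liver lipid metabolism, fell by 0.99 ± 0.09, and TEF, a clock-controlled factor, fell by 0.97 ± 0.16, or by 0.58 without background correction. NR3C1, the glucocorticoid receptor, fell by 0.58, or by 0.35 without background correction. RXRA, the dimer partner of many liver nuclear receptors, fell by 0.73 ± 0.11. Its 3 DMSO arrays read 12.15, 12.20 and 12.45 and its 3 sorafenib arrays 11.48, 11.46 and 11.66. RXRA, NR3C1 and FOXO3 were named after their values were seen.

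Paralogs of the members did not follow them uniformly. ONECUT2 rose by 0.94 ± 0.21 (SE, n = 3; limma, adjusted p = 0.0261) while ONECUT1 fell. The call of ONECUT2 was lost without DMSO replicate 3 and without each sorafenib replicate, with adjusted p up to 0.0732, and the rise was 0.64 without background correction. CEBPB and CEBPD, the C/EBP factors of the acute phase, differed by 0.08 ± 0.12 and -0.01 ± 0.11 (adjusted p = 0.712 and 0.969), and CEBPG by 0.20 ± 0.09 (adjusted p = 0.158). These 3 were chosen once their values were known. The differences between these paralogs and the members were not tested.

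**Figure D4:**
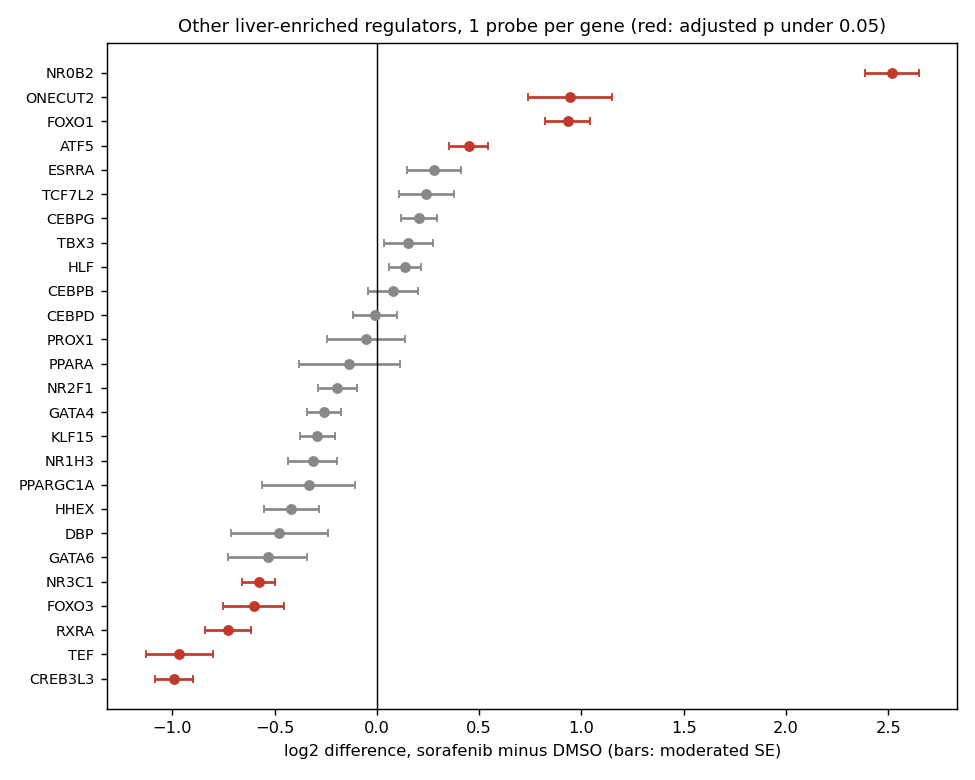
Log2 difference, sorafenib minus DMSO, of 26 liver-enriched regulators outside the 8 members, 1 probe per gene, with the moderated SE (n = 3 arrays per group) and red where the adjusted p was under 0.05. NR0B2 stands apart at 2.52, 3 others rose and 5 fell, from NR3C1 at -0.58 to CREB3L3 at -0.99.

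Genes that the literature names as targets of these factors were counted beside them. For these lists and those below, 8.44% of all genes were called higher and 11.6% lower, with a median of 0.00. The share of all probes called was 16.7%. It was 20.2% in the fit blocked on replicate number and 7.42% to 11.5% without 1 array. The lists share genes, among them APOB in those of HNF4A, FOXA and CEBPA, so their counts are not independent. Of 22 HNF4A targets tested, 8 fell and 3 rose, with a median of -0.40. APOC3, an inhibitor of triglyceride clearance, fell by 1.91 ± 0.16 (SE, n = 3; adjusted p = 0.00126 in limma), the clotting factor gene F7 fell by 1.13 ± 0.10 and APOA4 fell by 1.12 ± 0.12. APOM, the carrier of sphingosine phosphate, rose by 1.06 ± 0.08 and APOB by 0.53 ± 0.11. With the replicate block 11 fell and 3 rose, and over the 17 alternatives 4 to 11 fell and 1 to 4 rose. Only 4 fell without DMSO replicate 2, and 5 without DMSO replicate 3, sorafenib replicate 1 or sorafenib replicate 2. Without DMSO replicate 1 or 2 or sorafenib replicate 1 or 3 only 1 rose, APOM, and APOB had adjusted p up to 0.0746.

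Of 12 FOXA targets tested, 2 rose and 1 fell, with a median of 0.06, and 3 rose and 3 fell when the replicate number was a block. IGFBP1, a secreted binder of insulin-like growth factors, rose by 2.48 ± 0.22 (SE, n = 3; limma, adjusted p = 0.00153), or by 1.55 without background correction. The transferrin gene TF fell by 0.61 ± 0.10. The other gene that rose was APOB, and 1 rose without DMSO replicate 1 or 2 or sorafenib replicate 1 or 3. ALB differed by -0.01 ± 0.14, AFP by 0.28 ± 0.08 (adjusted p = 0.0565) and TTR by 0.30 ± 0.11 (adjusted p = 0.125).

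Of 12 CEBPA targets tested, 3 rose and 2 fell, with a median of -0.11, and in the blocked fit 3 rose and 4 fell. The genes that rose were TRIB1, and IGFBP1 and APOB, which are also in the FOXA list. HAMP, which encodes the iron hormone hepcidin, fell by 0.85 ± 0.12 (limma, adjusted p = 0.00793) and haptoglobin, HP, fell by 0.38 ± 0.07. HP lost its call with median scaling and in the fits that left out DMSO replicate 1, 2 or 3 or sorafenib replicate 1 or 2, each of which left 1 gene that fell. TRIB1, whose protein directs C/EBP-alpha protein to degradation through the ligase COP1, rose by 1.05 ± 0.09 (SE, n = 3; limma, adjusted p = 0.00159). Its 3 DMSO arrays read 11.28, 11.33 and 11.23, and its 3 sorafenib arrays 12.45, 12.34 and 12.20. Protein was not measured. PCK1, another target of FOXA and C/EBP factors, did not pass the filter and was detected on 1 of the 6 arrays.

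Of 14 NR5A2 targets tested, 3 rose and 4 fell, with a median of -0.33. Besides NR0B2 and APOM, PLK3, a stress kinase, rose by 0.87 ± 0.14 on a probe detected on 2 of the 3 DMSO arrays, or by 0.34 without background correction. STAR, which carries cholesterol into mitochondria, fell by 1.71 ± 0.25 (SE, n = 3; adjusted p = 0.00815 in limma) and was detected on 1 of the 3 sorafenib arrays, and CYP19A1, the aromatase gene, fell by 0.81 ± 0.08. Without background correction those falls were -0.74 and -0.46. With the block 6 fell, and over the alternatives 2 to 6 of the list fell, with 2 in the fits without each DMSO replicate and without sorafenib replicate 1 or 2. Of 4 ONECUT1 targets tested, 1 fell and none rose (limma; 1 higher at an unadjusted p under 0.05), and the one that fell was FOXA2, which lost its call as given above.

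Among 11 coregulators and genes of C/EBP-alpha turnover, TRIB1 rose and NCOA1, a coactivator of nuclear receptors, fell by 0.63 ± 0.08 (SE, n = 3; limma, adjusted p = 0.00534), with a list median of -0.11. With the block 2 rose. COP1 differed by -0.20 ± 0.08 (adjusted p = 0.139). The coactivator PPARGC1A differed by -0.33 ± 0.23 (adjusted p = 0.358) and EP300 by -0.00 ± 0.21. COP1, PPARGC1A and EP300 were named after their values were seen.

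Markers of other states and cell types were read on the same arrays, beside 8.44% of all genes called higher and 11.6% called lower. Of the 16 hepatocyte and HepG2 markers, 4 fell and 1 rose, and 7 fell with the block. FGG, a fibrinogen chain, fell by 0.91 ± 0.13 and APOA1 fell by 0.47 ± 0.10. FGG was called in all 17 alternatives, and APOA1 was not called with median scaling or without DMSO replicate 1, 2 or 3 or sorafenib replicate 1 or 2, with adjusted p up to 0.0777. Only 2 fell without DMSO replicate 2, and none rose without DMSO replicate 1 or 2 or sorafenib replicate 1 or 3. Of 9 oncofetal markers 1 rose and none fell (limma; 1 lower at an unadjusted p under 0.05), and the one that rose was LIN28B, which blocks let-7 maturation, by 0.41 ± 0.08. It was not called with median scaling or in any of the 6 fits without 1 array. Of 7 biliary and progenitor markers 1 fell, EPCAM, which fell by 0.38 ± 0.07 and lost its call without DMSO replicate 1 or 2 or sorafenib replicate 2 or 3 and with median scaling (adjusted p = 0.213), and none rose (limma; 1 higher at an unadjusted p under 0.05, and 1 called with the block). Their summed normalized intensity, again weighted to the brightest genes, was 45619 to 52484 with DMSO and 44531 to 48271 with sorafenib.

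Of 5 mesenchymal markers and opposing factors tested, 2 rose and 2 fell. The actin gene ACTA2 fell by 0.65 ± 0.08 and CDH2 fell by 0.36 ± 0.10, and FN1 and TGFBR2 rose by 0.45 ± 0.11 and 0.43 ± 0.09 (SE, n = 3; limma). ACTA2 was called in all 17 alternatives. Of the 6 fits without 1 array, FN1 was called in none, TGFBR2 only without sorafenib replicate 3 and CDH2 only without DMSO replicate 3, and none of these 3 was called with median scaling. The list's sum was lower with sorafenib, at 26027 to 27691 against 31257 to 33737. It adds intensities on a linear scale, so the brightest genes, ACTA2 and CDH2, which both fell, weigh most. The list's median log2 difference was 0.07, so the sum does not describe the genes as a set. SNAI1, SNAI2, ZEB2 and TWIST1, repressors of epithelial genes, were not above background on any array. ZEB1, another of the list, did not pass the filter and was detected on at most 2 of the 6 arrays. Of the 7 blood and endothelial markers, 2 passed the filter and none was called (limma; 1 at an unadjusted p under 0.05), and PTPRC, VWF, CDH5 and HBB were not above background on any array. The part of these markers in the members' differences was not tested.

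The genes nearest in pattern were found by the root mean square difference over the 6 arrays, after each probe was centred on its own mean. For FOXA1 they were FGGY, GALK1 and IFIH1, at 0.043, 0.046 and 0.049 log2 units. For CEBPA they were DGAT1, MPC2 and CCDC24, at 0.039 to 0.049. The nearest to FOXA2 were ZNF512, RHBDD2 and FDPS, those to FOXA3 were SLC23A2, RAB17 and PLEKHJ1, and those to ONECUT1 were HSDL1, CABIN1 and DPP4. For NR5A2 they were SREBF1, B3GALT6 and DHX37. Genes picked in this way have differences like the member's by selection, as the 0.42 of SREBF1, so these are no separate results. No member was among the 3 genes nearest to another member.

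**Figure D5:**
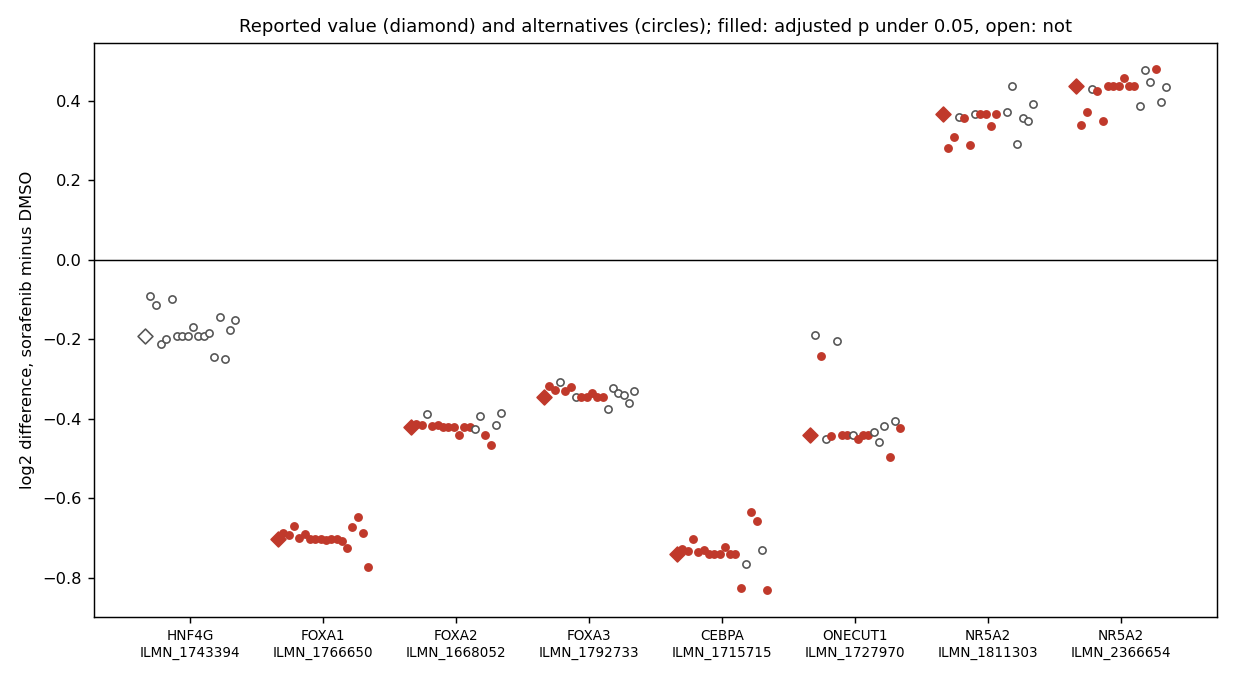
Log2 difference, sorafenib minus DMSO, of each tested probe in the reported fit (diamond) and under the 17 alternatives, or 16 for 1 NR5A2 probe (circles), filled red where the adjusted p was under 0.05 and open where not. Every probe keeps its side of 0, FOXA1 is filled throughout, and ONECUT1 lies at -0.24 to -0.19 in the 3 settings without neqc background correction.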

How the data were processed

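Per the labels' protocols, total RNA was turned into biotin-labelled cRNA and read on Illumina bead arrays. The authors deposited a probe intensity, not normalized by the files' own naming, and a detection p-value for each of 47323 probes and 6 arrays. Their processed values, on a log2 scale, were within 5e-07 of quantile-normalized log2 intensities of the deposited files. No source used here names the scanner software.

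Groups and replicate numbers came from the sample titles. Intensities were corrected with limma's neqc (normexp with controls inferred from detection p-values, offset 16), quantile normalized and put on a log2 scale. Probes detected (p below 0.05) in 3 or more of 6 arrays were tested by lmFit and eBayes, two-sided, and p-values were adjusted by Benjamini-Hochberg across 20120 probes. Errors are moderated SE, and a probe was called at an adjusted p under 0.05. For gene lists, a gene stood by its brightest detected probe. The platform annotation gave 1 symbol to 30113 probes, and 30074 were matched by gene number to RefSeq's GRCh38.p14 table. Promoters of 5 measured members were matched by symbol.

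Members and lists were chosen with earlier results of these data known. Named are all members, in each list the called genes with the 3 largest differences and up to 2 called in the opposite direction, NR0B2, ALB, AFP, TTR, APOB and PCK1 where tested, and the 3 genes nearest in pattern to each called member. Genes named outside this rule, among them LINC00261 and markers not above background, were chosen after their values were seen. As a check of pairing, same-numbered arrays of both groups showed correlations of 0.273, 0.237 and 0.315 in their deviations from their group's mean, each above 0.1, and other pairs -0.289 to 0.0286. Deviations from a group's mean sum to 0 over its 3 arrays. Positive values for same-numbered arrays therefore push the other pairs down, and the contrast is partly built in. With 3 arrays a group the check cannot establish pairing. The numbers were treated as pairing the arrays for an alternative fit only, their meaning being absent from the labels. The reported fit, its errors and adjusted p-values, and the exact permutation tests did not use this pairing. A fit blocked on replicate number was run as an alternative, beside other background corrections, normalizations, filters and variance models, the authors' values, 1 probe per gene and leaving out each array. The fit was tested on simulated data. R 4.3.3, limma 3.58.1, statmod 1.5.0, Python 3.11.15 and matplotlib 3.10.9 were used. The number of arrays limits the precision.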

Additional observations from a re-analysis of the deposited data

How the results depend on the processing

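No member probe or pair of probes reversed its direction under the alternatives run. Changed filters, eBayes with trend and robust, the block and 1 probe per gene leave a log2 difference as it was, so they could not reverse one. Of the list genes, only the called ones and ALB, AFP, TTR and APOB were followed singly over the alternatives. Among these ALB, which was not called, changed sign in some, at -0.12 to 0.09. Other uncalled genes named, such as EP300 and CEBPD, were not followed, so their side of 0 is not known to hold. Under median scaling 1853 of all probes were called, 734 higher and 1119 lower, and among the member probes 2 were called, 2 lower and 0 higher. With no filter on dim probes 915 probes were called higher, and 1 member probe. With 1 probe per gene, 1 member probe was called higher, because the second NR5A2 probe is then not tested. Leaving out 1 array at a time gave 1492 to 2311 called probes, 553 to 909 higher and 879 to 1402 lower, and 1 to 5 called member probes, 0 to 1 higher and 1 to 4 lower. The lower calls fell to 1, FOXA1, without DMSO replicate 2 or sorafenib replicate 2. With the replicate number as a block 4065 probes were called, 1816 higher and 2249 lower, and the same 2 higher and 5 lower member probes, so the block changed no call of a member; the blocked change of FOXA1 against FOXA3 was -0.36 (exact sign-flip test over the 3 pairs, p = 0.25, the smallest it allows), of FOXA1 against FOXA2 -0.28, of FOXA2 against FOXA3 -0.08 and of the NR5A2 probes -0.07.

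Over the 17 alternatives 4 to 8 other regulators fell and 2 to 4 rose, 1 to 3 FOXA targets fell and 1 to 4 rose, 1 to 5 CEBPA targets fell, 0 to 1 ONECUT1 targets fell, 1 to 3 coregulators fell and 1 to 2 rose, 2 to 7 hepatocyte markers fell and 0 to 3 rose, 0 to 2 oncofetal markers rose, 0 to 1 biliary markers fell, and 0 to 2 mesenchymal markers rose and 1 to 2 fell. The cause was not tested. The values of ONECUT1 and HNF4G are limited by a signal little above background.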
